A study of Mus musculus with 18 samples.

Results

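Liver gene expression was compared between mice fed a high and mice fed a low dose of bisphenol A. The comparison used 12 of the 18 arrays of the study, taken by their titles: 6 livers at the high dose against 6 at the low dose. The mice were male CD-1, an outbred strain, that ate a powdered diet rich in starch and sucrose for 28 days and were 9 weeks old at the end. The low-dose diet was made up to give on average 50 µg of bisphenol A per kg body weight per day and the high-dose diet 5000 µg per kg per day, a 100-fold difference in dose. The labels equate 5000 µg with the no-observed-adverse-effect level and 50 µg with the tolerable daily intake. Another 6 mice ate the same diet without bisphenol A. These controls were not part of the contrast, but their levels are given as background and they shared in the estimate of the spread. All doses were computed from an assumed daily food intake. RNA came from a frozen piece of the large liver lobe, 1 mouse per array, so each value is a mean over all cell types of the piece, in which fewer cells of a type and less RNA per cell cannot be told apart.

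Bisphenol A is a monomer of polycarbonate plastics and epoxy resins that binds the estrogen receptors weakly. The liver takes it up from the gut and inactivates it largely by conjugation to glucuronic acid. In the fed state the liver also turns excess carbohydrate into fatty acids. Citrate leaves the mitochondria and ATP citrate lyase (Acly) splits it to acetyl-CoA. Acetyl-CoA carboxylase (Acaca) and fatty acid synthase (Fasn) then build the chain, which Elovl6 lengthens and Scd1 desaturates. The transcription factors SREBP-1c (Srebf1) and ChREBP (Mlxipl) drive these genes after a carbohydrate meal, and SREBP-2 drives those of cholesterol synthesis when sterols are scarce.

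Levels below are log2 intensities relative to the 75th percentile on the same array, so 0 is a fairly bright probe and 1 unit is a doubling. The 75th percentile of intensity was 291 ± 43.7 at the low dose (SD, n = 6) and 287 ± 34.6 at the high dose (SD, n = 6), and the difference of -0.01 on the log2 scale had an exact permutation p of 0.909 (2-sided). Between 58.7% and 63.2% of the probes were well above background on the dosed arrays. Arrays that shared a scan pass were taken as 1 slide. Each of the 5 slides held both doses, but with only 1 or 2 arrays of each. Position on the slide was not balanced: no low-dose array lay at position 4 and no high-dose array at position 1, and no model held position. The 6 control arrays lay only at positions 1 and 4, 3 at each, and none was on slide 1. Their 75th percentile was 228 ± 42.5 (SD, n = 6). Differences from the controls can therefore not be fully told apart from position and brightness. Arrays on the same slide tended to deviate together. The deviations of low- and high-dose mice from their group means correlated across genes with a median r of 0.224 over the 7 pairs on a shared slide and -0.05 over the 29 other pairs, where genes are not independent replicates. Differences within slides are therefore given beside the main results. Hepatocyte markers were bright: 12 of 14 listed genes were measured, all of them well above background on all arrays.

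High-dose mouse 2 stood apart. Its level of S100a8, which encodes a subunit of the neutrophil protein calprotectin, was 2.64, against -4.79 to -2.46 in the other high-dose mice. Its level of S100a9, the other subunit, was 5.45, where the low-dose mice ran from 0.11 to 2.37 (both genes were chosen after their values were seen). Over the 6 measured neutrophil markers of 12, the summed level of this mouse was 141 times the 75th percentile, against 1.73 to 16.2 at the low dose. Of these 6, 3 were well above background on all arrays. Another limit is that Lcn2 is in both this list and the acute phase list, so the 2 lists are not separate readings. Its acute phase genes, the liver's secreted response to inflammation, stood at a median of 1.44 above the mean of the dosed mice, where the other high-dose mice lay between -0.55 and 0.25. Without this mouse 9 genes passed the test between the doses in place of 5, and lists that move with it are given with and without it below.

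Few genes separated the doses. Of 17148 genes tested, 5 passed an adjusted p of 0.05 (limma, Benjamini-Hochberg over all genes), which is 0.0292% of them. Serpinb1a, an inhibitor of neutrophil serine proteases inside cells, was the 1 gene that was higher at the high dose (0.00583%). Reck, Atp2b2, Chrna4 and Crem were the 4 that were lower (0.0233%). At an unadjusted p under 0.05 there were 1316 genes (7.67%), where 857 are expected on average if no gene differs. Genes on an array are not independent, and the excess was not tested. The total also depended on the setting: it was 402 with the normexp background and 1761 with array weights. The 1316 genes were split evenly, 651 higher (3.80%) and 665 lower (3.88%), but the split depended on the scaling. It was 600 to 750 with quantile normalisation, 271 to 789 when the array median was subtracted, and 129 to 273 with the normexp background. By sign alone, 55.4% of all genes were higher and 44.6% lower, around a median difference of 0.02. A change of 2-fold or more was seen in 73 genes each way (0.426% each). The 6 high-dose values all lay above the 6 low-dose values in 25 genes (0.146%) and all below them in 51 (0.297%). Among these 76 genes the low-dose group lay wholly outside the controls in 25 and the high-dose group in 1, and the control mean lay between the dose means in 56. These genes were picked by the gap between the doses, and shares over all genes are not given, so the counts describe them only. Among the 1316 genes with an unadjusted p under 0.05 the control mean lay between in 858. They too were picked by a difference between the doses, which favours a control mean between them. The share over all genes is not given, so this count also describes the picked genes only.

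The count of genes that passed was not stable. The fit of the 12 dosed arrays without controls gave 0 genes (limma, 1112 at an unadjusted p under 0.05), and the fit with slide as a block gave 0 (1377 unadjusted). With the normexp background 1 gene passed, Pnpla5, which is none of the 5. Leaving out 1 array at a time gave 1 gene without control 1, control 4, low-dose mouse 1, 5 or 6, or high-dose mouse 1 or 3, 2 without low-dose mouse 3 or high-dose mouse 5, and 3 without control 3, low-dose mouse 2 or high-dose mouse 6. It gave 10 without low-dose mouse 4 and 9 without high-dose mouse 2. Reck passed in all 18 of these fits, Atp2b2 in 10, Serpinb1a in 8, Chrna4 in 6 and Crem in 3. Over the 16 other settings Reck and Atp2b2 passed in 12 each, Chrna4 and Serpinb1a in 11 each and Crem in 9. The 9 genes without high-dose mouse 2 were those 5 and Apex1, Lpin1, Meiob and 4930579F01Rik. Meiob and the unnamed clone lie outside the rule for named genes and were named after their values were seen.

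**Figure D1:**
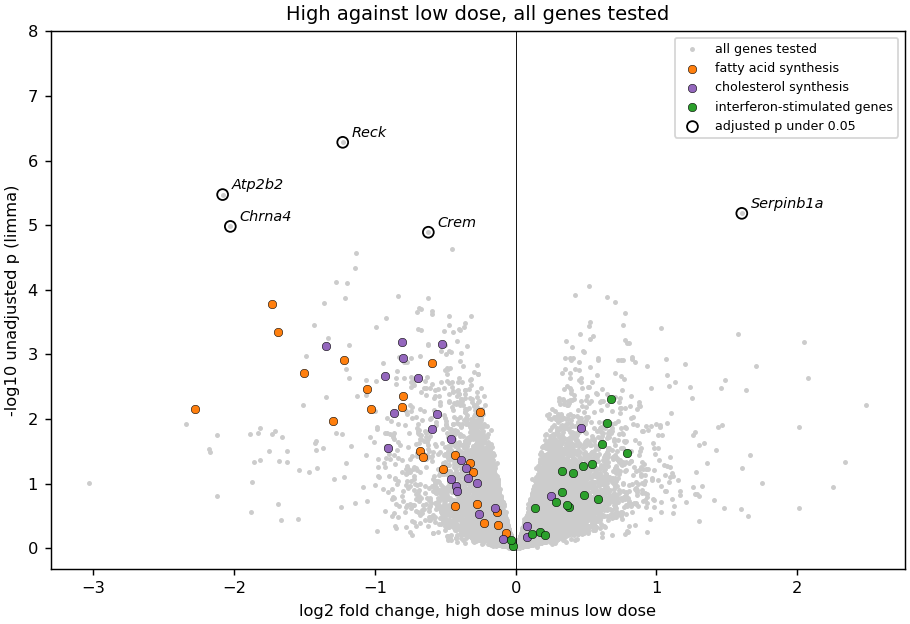
Each point is a gene: the difference between the doses on the log2 scale (x axis, high minus low) against the minus log10 of its unadjusted limma p (y axis). The 5 ringed genes passed an adjusted p of 0.05. Genes of fatty acid synthesis (orange) and most of cholesterol synthesis (purple) lie left of 0, and 18 of 20 interferon-stimulated genes (green) lie right of it, none of them ringed.

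Reck encodes a membrane-anchored inhibitor of matrix metalloproteases. Its probe lies on chromosome 4 at 43965292 to 43965351 (mouse build mm8, the coordinates of the deposited files). In the low-dose mice its level ran from -0.30 to 0.18 with a median of 0.03, and in the high-dose mice from -1.81 to -0.84 with a median of -1.20. The groups did not overlap. Reck was 2.34-fold lower at the high dose (log2 difference -1.23 ± 0.16 SE, adjusted p = 0.00896, limma). The control mice, at -1.61 to -1.24, lay within the range of the high-dose mice. The difference was negative on each of the 5 slides (4.51% of all genes were), from -1.73 to -0.54, but with slide as a block its adjusted p was 0.127.

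Atp2b2 encodes a calcium pump of the plasma membrane that is known from neurons and the inner ear. Its probe lies on chromosome 6 at 113714130 to 113714189 (mm8). Low-dose levels ran from 0.70 to 2.05 with a median of 1.14 and high-dose levels from -1.81 to 0.06 with a median of -0.43. The groups did not overlap. The gene was 4.23-fold lower at the high dose (-2.08 ± 0.31 SE, adjusted p = 0.0288, limma), and the controls, at a mean of 0.00 ± 0.25 (SD, n = 6), stood between the dose means. High-dose mice 2 and 5, at -1.81 and -1.64, were the lowest, and the slide differences ran from -3.44 to -0.64. The adjusted p with slide as a block was 0.163.

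Chrna4 encodes the alpha4 subunit of the neuronal nicotinic acetylcholine receptor. Its probe lies on chromosome 2 at 180952012 to 180952071 (mm8). Low-dose levels ran from 0.62 to 2.24 with a median of 0.92, and high-dose levels from -1.67 to -0.43 with a median of -0.79. The groups did not overlap, although low-dose mouse 1 lay far above the other 5 low-dose mice, which reached 1.13. Chrna4 was 4.07-fold lower at the high dose (-2.03 ± 0.33 SE, adjusted p = 0.0441, limma). The controls, at -2.23 to -0.22, spanned the high-dose range. A second probe of the gene gave -1.61 with an adjusted p of 0.0243 when every probe was tested alone (limma). The slide differences were close to each other, from -2.23 to -1.63. With slide as a block the adjusted p was 0.163.

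Crem encodes the cyclic AMP response element modulator, a transcription factor that has both activating and repressing forms. Low-dose levels ran from 1.91 to 2.20 with a median of 2.03 and high-dose levels from 1.19 to 1.60 with a median of 1.47. The 2 groups were narrow and did not overlap, and the controls spread from 1.57 to 2.04 across the gap. The difference was 1.54-fold (-0.62 ± 0.10 SE, adjusted p = 0.0441, limma), and with slide as a block its adjusted p was 0.163. It also lost its call with the array median (adjusted p = 0.0824), the deposited value table (0.0911), no filter (0.0917) and the normexp background (0.773; all limma). All 5 probes of Crem gave nearly the same value, from -0.63 to -0.60. These probes read 1 gene and are not replicates of the mice.

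Serpinb1a had low-dose levels from -3.78 to -2.56 with a median of -3.06 and high-dose levels from -2.22 to -0.90 with a median of -1.54. Its probe lies on chromosome 13 at 32850318 to 32850377 (mm8) and was well above background on all 18 arrays. The groups did not overlap, and the controls, from -3.05 to -2.01, overlapped both. The gene was 3.05-fold higher at the high dose (1.61 ± 0.25 SE, adjusted p = 0.0375, limma). Serpinb1a is carried by neutrophils as well. The mouse with the high neutrophil markers stood at -1.63, near the middle of its group, and without that mouse the difference was 1.63. The part of neutrophils in the difference was not tested. The slide differences ran from 0.91 to 2.88, all above 0 (as for 4.62% of all genes). The fit that held slide as a block gave an adjusted p of 0.163. With the normexp background the difference was 0.92 and did not pass (adjusted p = 0.773, limma). In the deposited value table it was 0.94 and passed (adjusted p = 0.0227, limma).

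**Figure D2:**
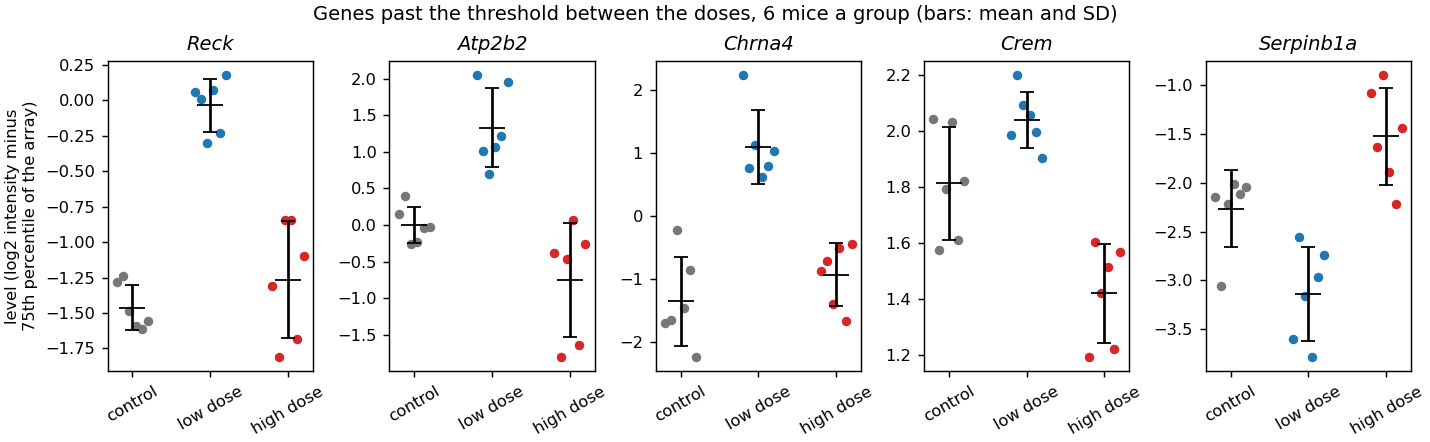
Levels of the 5 genes that passed the test, on the log2 scale relative to each array's 75th percentile (y axis), in each control, low-dose and high-dose mouse, with bars for the mean and SD of 6 mice. Low and high dose do not overlap in any panel, and for Reck and Chrna4 the controls lie at the level of the high-dose mice.

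The next genes by p-value did not pass. Those named here are the ones with the smallest p that have a regular symbol, so clones and unnamed transcripts with a p as small are passed over. Among those lower at the high dose, Apex1, the main endonuclease of base excision repair, ran from 2.42 to 2.59 at the low dose and from 1.92 to 2.19 at the high dose. The groups did not overlap and both were narrow (-0.45 ± 0.08 SE, adjusted p = 0.0654, limma). Got1, the cytosolic aspartate aminotransferase, ran from 5.02 to 6.45 at the low dose and from 4.33 to 4.87 at the high dose (-1.13 ± 0.20 SE, adjusted p = 0.0654, limma). Low-dose mouse 4, at 5.02, came nearest to the high-dose mice. Got1 passed in 4 of 16 other settings, among them the deposited value table (adjusted p = 0.0403, limma). Lpin1, a phosphatidate phosphatase of triglyceride synthesis, ran from 1.90 to 2.88 at the low dose and from 0.51 to 1.90 at the high dose (-1.14 ± 0.21 SE, adjusted p = 0.0976, limma). Its 3 other probes gave -1.20 to -1.08. The rest of the 12 were Zbtb32, a zinc finger repressor (-1.20, but -0.023 with the normexp background and -0.49 in the deposited value table), Fgd6 (-0.84), Mblac2 (-0.62), Pnpla5, a patatin-like lipase (-1.36), and Acly (-1.73), with adjusted p from 0.136 to 0.148 (limma).

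On the other side, the 11 named genes after Serpinb1a had adjusted p from 0.136 to 0.199 (limma). Fbxo31, a substrate receptor of a ubiquitin ligase, differed by 0.52 and ran from 3.09 to 3.48 at the low dose and from 3.52 to 4.05 at the high dose, and the 5 slides gave 0.37 to 0.66. Rab12, a small GTPase of membrane traffic, differed by 0.42, and Nfkbia, the inhibitor that holds NF-kappaB in the cytoplasm, by 0.65. Prox1, a homeobox factor of hepatocytes and lymphatic vessels, differed by 0.76. Nr1h4, the bile acid receptor FXR, differed by 0.46, and Stat5a, a mediator of growth hormone signals, by 0.53. The others were Dqx1 (0.71), Smim19 (0.52), the cation channel Trpm4 (1.03), the mitochondrial nucleotide kinase Nme4 (0.55) and the orphan receptor Gpr162 (0.78). The differences of Fbxo31, Nr1h4 and Smim19 were 0.31, 0.28 and 0.31 with the normexp background, and those of Dqx1 and Trpm4 were 0.33 and 0.64 in the deposited value table.

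**Figure D3:**
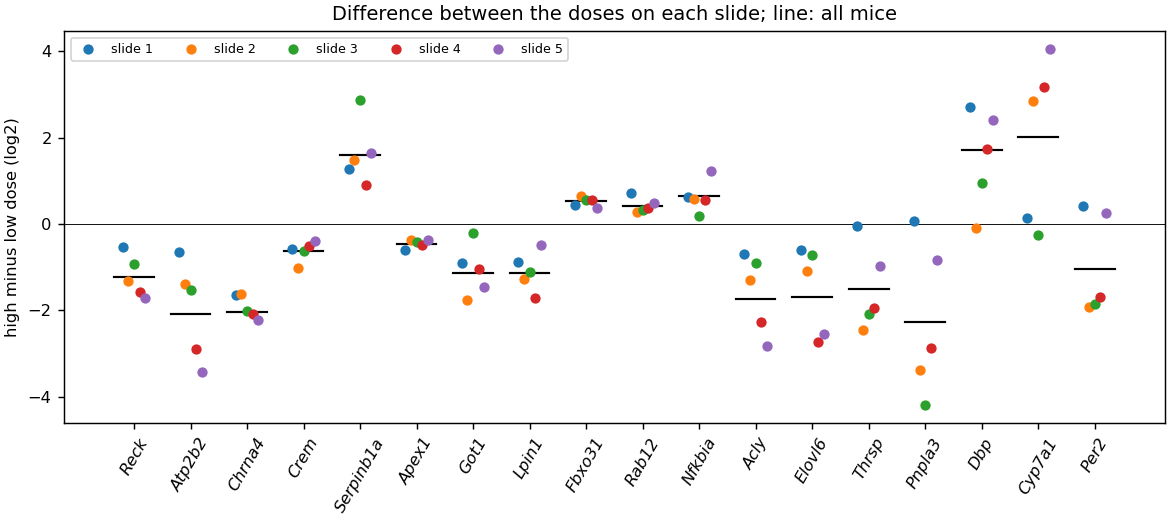
Difference between the high- and low-dose mice on each slide (coloured points, log2, y axis) for 18 genes (x axis), with a line at the difference over all mice. Reck, Atp2b2, Chrna4 and Crem are below 0 and Serpinb1a, Fbxo31, Rab12 and Nfkbia above 0 on all 5 slides, whereas Pnpla3, Dbp, Cyp7a1 and Per2 have slides on both sides of 0.

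Genes of fatty acid synthesis all lay on the lower side at the high dose, although none passed the test alone. All 24 listed genes were measured and all 24 differences were below 0, where 44.6% of all genes were. Some members, such as Pklr, are also in the glycolysis list below. The median was -0.63, against 0.02 for all genes, and they ran from -2.28 to -0.07. At an unadjusted p under 0.05, 16 of 24 were lower (3.88% of all genes were) and 0 higher. The list's median was below 0 on each of the 5 slides, from -0.79 to -0.13. It stayed between -0.79 and -0.52 in all other settings that gave 1 value per gene. Without high-dose mouse 2 it was -0.60. Against the controls, the median was 0.68 in the low-dose mice and 0.02 in the high-dose mice. Both values use the same controls, whose arrays differed from the dosed ones in position and brightness. The list was chosen with earlier results of these arrays known, so its direction is a description.

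Acly stood first by p-value. It ran from 3.90 to 5.95 at the low dose with a median of 5.07 and from 2.46 to 4.11 at the high dose with a median of 2.91. The groups overlapped only through low-dose mice 2 and 4, at 4.10 and 3.90, and high-dose mice 4 and 6, at 4.08 and 4.11 (-1.73 ± 0.36 SE, adjusted p = 0.148, limma). Elovl6, the elongase that lengthens palmitate, ran from 4.58 to 7.04 and from 3.54 to 5.07 (-1.69 ± 0.39 SE, adjusted p = 0.178, limma). High-dose mice 4 and 6, at 5.07 and 4.78, lay above the lowest low-dose mouse. Acss2, which makes acetyl-CoA from acetate, differed by -1.22, the malic enzyme Me1 by -1.03 and Pgd, of the pentose phosphate pathway, by -0.59. Malic enzyme and that pathway both supply NADPH for chain building.

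Pnpla3, a lipid droplet hydrolase induced by carbohydrate, differed by -2.28 ± 0.74 SE with an adjusted p of 0.416 (limma). Its high-dose mice fell into 2 sets. High-dose mice 1, 3 and 5 stood at 0.74, 0.19 and 0.04, at the level of the controls (0.02 to 1.73). High-dose mice 2, 4 and 6 stood at 3.88, 4.16 and 4.47, inside the low-dose range of 3.45 to 5.97. Thrsp, a small activator of lipogenesis, split in the same way: 4.27, 4.53 and 4.42 in mice 1, 3 and 5, and 6.04, 6.61 and 6.54 in mice 2, 4 and 6, where the low-dose mice ran from 6.62 to 7.42. These mice were not compared as groups, since they were picked out by these levels, and the labels give no property that tells them apart. Mice 1, 3 and 5 lay on slides 2, 3 and 4, and mice 2, 4 and 6 on slides 5, 1 and 4.

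Fasn depended on the probe. Its brighter probe was saturated on 10 of the 18 arrays and differed by -0.07. Its second probe was not saturated on any array and gave -1.65 ± 0.36 SE (adjusted p = 0.132 when every probe was tested alone, limma). The 3 probes of Acaca gave -0.68, -0.98 and -1.27, none past the threshold, and the first of them gave -0.087 with the normexp background. The regulator Srebf1 itself differed by -0.23 ± 0.26 SE (adjusted p = 0.919, limma) over 5 low-dose and 6 high-dose mice, since 1 low-dose value was missing. The 95% interval of its difference ran from -0.79 to 0.33.

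Cholesterol synthesis genes were also mostly lower. Of 25 genes, 21 were lower and 4 higher, with a median of -0.42, 12 lower and 1 higher at an unadjusted p under 0.05 (3.88% and 3.80% of all genes), and 0 past the adjusted threshold. Lss, which folds squalene epoxide into lanosterol, ran from 1.27 to 2.38 at the low dose and from 0.79 to 1.58 at the high dose (-0.81 ± 0.19 SE, adjusted p = 0.199, limma). Mvd, of the mevalonate pathway, ran from 1.69 to 2.87 and from 0.01 to 1.95 (-1.35 ± 0.33 SE, adjusted p = 0.199, limma). Stard4, a cholesterol carrier, did not overlap between the groups, at 2.91 to 3.13 against 2.23 to 2.78 (-0.53 ± 0.13 SE, adjusted p = 0.199, limma). Squalene epoxidase Sqle differed by -0.91 (adjusted p = 0.591, limma). The median of the list was below 0 on each slide, from -0.96 to -0.16, and was -0.49 without high-dose mouse 2. Against the controls the medians were 0.47 at the low and 0.05 at the high dose.

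The promoters of these genes were read because most of the members lay on the lower side. A CCAAT box, the element bound by NF-Y, which works beside SREBP at many sterol-regulated genes, was searched as CCAAT on both strands in the 250 bases before the start of each gene (RefSeq, GRCm38.p6). It was found in 16 of 17 cholesterol synthesis genes with a sequence (94.1%) and in 12 of 19 fatty acid synthesis genes (63.2%), against 37.5% of 27025 genes. It was also found in 11 of 16 circadian clock genes (68.8%). The sterol response element, searched as TCACNCCAC, was found in 1 of 17 and 1 of 19, against 1.23% of all. A match is a description of the letters and not a bound site. The promoter windows of 3 members are shown, with the CCAAT box, in either direction, in capitals.
Fasn, chr11:120824548-120824667, minus strand: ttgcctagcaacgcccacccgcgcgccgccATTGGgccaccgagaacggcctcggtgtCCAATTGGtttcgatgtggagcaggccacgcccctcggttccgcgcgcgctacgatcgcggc
Lss, chr10:76531485-76531604, plus strand: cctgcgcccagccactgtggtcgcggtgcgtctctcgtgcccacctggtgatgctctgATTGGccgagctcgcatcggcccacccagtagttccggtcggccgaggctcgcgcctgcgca
Mvd, chr8:122443423-122443542, minus strand: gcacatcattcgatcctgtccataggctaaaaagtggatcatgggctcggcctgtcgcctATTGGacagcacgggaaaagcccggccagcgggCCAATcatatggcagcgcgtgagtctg

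Genes that store or burn fat moved less evenly. Triglyceride synthesis had 6 genes higher and 7 lower of 13, with a median of -0.03. Of these, 3 were lower at an unadjusted p under 0.05 (3.88% of all genes were): Lpin1 (above), Gpam, the acyltransferase of the first step (-1.43 ± 0.32 SE, adjusted p = 0.176, limma), and Lpin2 (-0.46). Fatty acid oxidation split 11 to 11 with a median of 0.02. Cpt1a, which admits fatty acids to the mitochondria, ran from 3.41 to 4.37 at the low dose and from 3.75 to 4.77 at the high dose (0.49 ± 0.20 SE, adjusted p = 0.568, limma). Targets of the fatty acid receptor PPARA were higher in 17 of 20, with a median of 0.24, but 0 of them had an unadjusted p under 0.05 (3.80% of all genes did), and the slides ran from -0.51 to 1.09. Their median was 0.39 without high-dose mouse 2, whose own targets were the lowest of its group, at -0.76 relative to the dosed mice. Ppara itself differed by 0.24. Among lipoprotein genes, 9 were higher and 7 lower of 16. Mttp, which loads lipid onto apolipoprotein B, was the 1 member with an unadjusted p under 0.05 (-0.41, adjusted p = 0.301, limma). By that measure 3.88% of all genes were lower.

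Carbohydrate genes showed single differences and a small shift. Of 20 glycolysis genes, 13 were lower and 7 higher with a median of -0.10, and 4 lower and 1 higher had an unadjusted p under 0.05 (3.88% and 3.80% of all genes). Pklr, the liver pyruvate kinase and a ChREBP target, ran from 2.54 to 3.68 at the low dose and from 1.58 to 3.01 at the high dose (-0.81 ± 0.26 SE, adjusted p = 0.403, limma). Among gluconeogenic and FOXO1 target genes 8 were lower and 7 higher of 15, with Got1 first. The glucose-6-phosphatase gene G6pc differed by -0.70 and Igfbp1, a FOXO1 target, by -0.98, and neither passed. Igfbp1 spread from 4.37 to 6.78 over the low-dose mice. High-dose mouse 2 stood at 5.74 and the other 5 high-dose mice between 4.18 and 4.47, and without that mouse the difference was -1.22.

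The circadian clock had large differences in both directions and no call. Of 17 measured genes 7 were higher and 10 lower, and 3 higher and 4 lower had an unadjusted p under 0.05 (3.80% and 3.88% of all genes). Dbp, an output transcription factor with one of the widest daily rhythms in liver, ran from 2.08 to 2.85 in the high-dose mice. In the low-dose mice it stood at -0.25, 0.02 and -0.03 in mice 1, 3 and 5, at 0.66 in mouse 6 and at 1.91 and 2.76 in mice 4 and 2. The difference was 1.71 ± 0.45 SE (adjusted p = 0.252, limma), with slides from -0.08 to 2.71. Tef, of the same family, differed by 0.57 with the same low-dose mice low, at -0.63, -0.13 and -0.34. Nr1d1, the repressor REV-ERBalpha, differed by 1.24 ± 0.36 SE (adjusted p = 0.327, limma), and all 5 slides were above 0, from 0.69 to 1.59. Its 2 other probes gave 0.63 and 0.51, with adjusted p of 0.564 and 0.859 (every probe alone, limma). Per2 gave -1.03 on its brighter probe and 0.23 on the other, so its direction depends on the probe. The hour at which each mouse was killed is not given in the sources used here, and its part in these values was not tested.

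**Figure D4:**
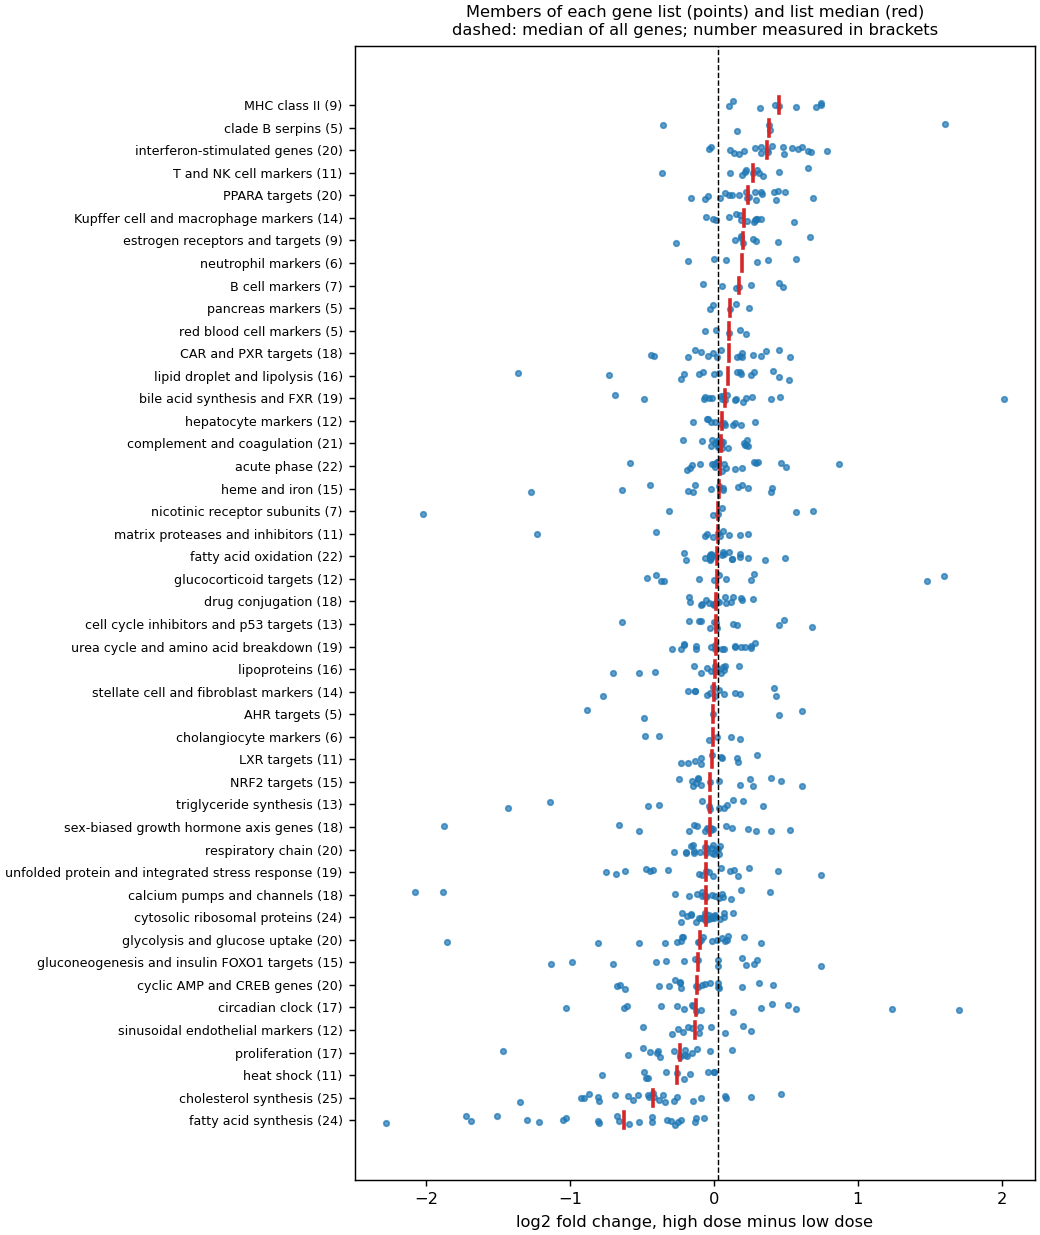
Log2 difference between the doses (x axis) for the measured members of each gene list (y axis, number measured in brackets, lists of 5 or more), with the list median as a red bar and the median of all genes as a dashed line. The medians run from -0.63 for fatty acid synthesis to 0.45 for MHC class II.

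Interferon-stimulated and antigen presentation genes leaned the other way. Of 20 interferon-stimulated genes 18 were higher and 2 lower, with a median of 0.37, and 5 were higher at an unadjusted p under 0.05 (3.80% of all genes were). None passed the adjusted threshold. Mx2, an antiviral GTPase, ran from -0.75 to 0.03 at the low dose and from -0.02 to 1.25 at the high dose (0.68 ± 0.21 SE, adjusted p = 0.377, limma). Ifit1, which binds viral RNA, ran from -2.46 to -1.38 and from -1.86 to -0.61 (0.65 ± 0.23 SE, adjusted p = 0.481, limma). Usp18 differed by 0.61 and Mx1, well above background on only 8 of 18 arrays, by 0.79. The list was above 0 on 4 slides, reaching 0.96, and below it on slide 1, at -0.12, and its median was 0.27 without high-dose mouse 2. High-dose mice 2 and 6, at 0.56 and 0.41 relative to the dosed mice, were the highest.

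All 9 measured MHC class II genes were higher, with a median of 0.45 (0.34 without high-dose mouse 2), and 3 had an unadjusted p under 0.05, where 3.80% of all genes were called higher. On slide 1 the list was below 0, at -0.25, and on the other slides it ran from 0.34 to 0.89. H2-Ab1, a chain of the I-A molecule, ran from 0.80 to 1.93 at the low dose and from 1.40 to 2.65 at the high dose (0.74 ± 0.25 SE, adjusted p = 0.439, limma). H2-Aa differed by 0.71 and H2-DMb1 by 0.74. Markers of the cells that carry these genes are given beside them. Kupffer cell and macrophage markers were higher in 12 of 14, with a median of 0.21 that was 0.00 without high-dose mouse 2, and their summed level ran from 51.8 to 143 at the low dose and from 65.6 to 202 at the high dose. B cell markers were higher in 6 of 7, with a median of 0.17 and summed levels of 1.44 to 3.38 and 1.56 to 5.27. T and NK cell markers were higher in 10 of 11, with a median of 0.27 and summed levels of 1.55 to 2.16 and 1.46 to 2.11. A summed level follows the brightest members. Only 5 of the measured B cell markers and 6 of the T and NK cell markers were well above background on all arrays. Of the marker lists, Igkc, Pax5 and Blk of B cells and Cd8a, Trac and Ncr1 of T and NK cells did not pass the filter on dim probes. The part of these cells in the 2 gene lists was not tested.

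The interferon response element, searched on both strands of the same windows, was found in 8 of 15 interferon-stimulated genes with a sequence (53.3%), against 3.46% of all genes. The list was made of genes known to answer interferon, so this share describes the list and not the doses. A match is again a description of the letters and not a bound site. The window of Ifit1 shows 2 such elements, on the other strand, in capitals.
Ifit1, chr19:34640769-34640888, plus strand: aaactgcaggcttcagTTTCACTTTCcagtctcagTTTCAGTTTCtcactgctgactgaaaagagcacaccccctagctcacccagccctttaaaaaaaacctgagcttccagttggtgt

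**Figure D5:**
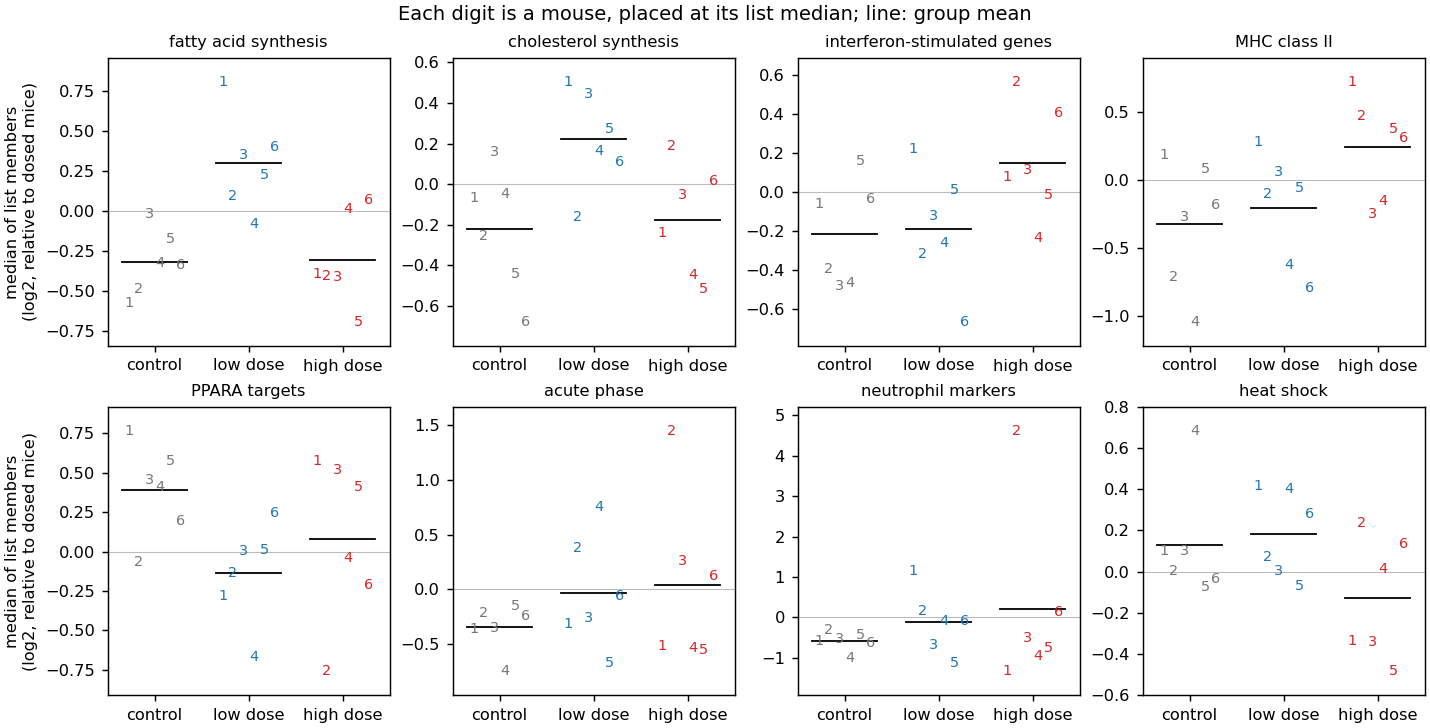
Median over the members of 8 gene lists in each mouse (digits are mouse numbers), in log2 units relative to the mean of the 12 dosed mice (y axis), with a line at the group mean. High-dose mouse 2 stands at 4.61 for neutrophil markers and 1.44 for acute phase genes, and the low-dose mice lie above most high-dose mice for fatty acid synthesis.

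Receptors and enzymes that handle foreign compounds showed no call. Esr1, the estrogen receptor of liver, differed by 0.18 ± 0.30 SE (adjusted p = 0.943, limma), with bounds from -0.45 to 0.82, and its sign turned without high-dose mouse 2 (-0.05). Of 9 measured estrogen receptor and target genes 8 were higher (55.4% of all genes were), with a median of 0.20. Esrra, an orphan relative, was the 1 with an unadjusted p under 0.05 (0.29, adjusted p = 0.461, limma). Cyp2b10, the classic target of the drug receptor CAR, differed by 0.05 ± 0.59 SE and took either sign between settings. Its levels ran from -4.99 to -2.23 at the low dose and from -5.41 to -2.31 at the high dose, and it was well above background on 13 of 18 arrays. Nr1i3, which encodes CAR, differed by 0.53 and Cyp3a11 by -0.44, neither past the threshold. Por, the electron donor of these enzymes, was the 1 of 18 CAR and PXR list members with an unadjusted p under 0.05 (0.45). By that measure 3.80% of all genes were higher. Conjugation enzymes, the route by which bisphenol A is cleared, split 10 higher to 8 lower of 18 with a median of 0.01. Cyp7a1, the rate-limiting enzyme of bile acid synthesis, ran from -4.36 to -1.36 at the low dose and from -3.77 to 0.98 at the high dose (2.01 ± 0.73 SE, adjusted p = 0.487, limma), with slides from -0.24 to 4.05.

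The relatives of the 5 genes mostly had small differences. Of 7 measured nicotinic receptor subunits 4 were higher and 3 lower, with a median of 0.03, and Chrna4 was the member with an unadjusted p under 0.05. Of 18 calcium pump and channel genes 7 were higher and 11 lower, with a median of -0.06. Of 11 measured matrix proteases and inhibitors 6 were higher and 5 lower, and Reck alone had an unadjusted p under 0.05. By that measure 3.88% of all genes were lower and 3.80% higher. Cyclic AMP and CREB genes were lower in 14 of 20, with a median of -0.12. Beside Crem, Pde4b, a phosphodiesterase that degrades cyclic AMP, was lower (-0.65) and the cyclase Adcy6 higher (0.41) at an unadjusted p under 0.05. Clade B serpins were higher in 4 of 5 measured, with Serpinb6b at 0.38 (adjusted p = 0.562, limma). These lists were drawn up with the 5 genes known.

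Among the remaining lists, heat shock genes were lower in 9 of 11 with a median of -0.26, among them Hsp90aa1 (-0.46) and the co-chaperone Bag3 (-0.49), the 2 members with an unadjusted p under 0.05 (3.88% of all genes were lower by that measure). Proliferation genes were lower in 16 of 17 (44.6% of all genes were), with a median of -0.24. Rrm2 and Mcm5 were the 2 with an unadjusted p under 0.05 (3.88% of all genes were lower by that measure). With the normexp background these 2 genes differed by 0.12 and -0.088. The slides of the list ran from -0.50 to 0.13, and across settings its median ran from -0.37 to 0.08. Atf4, the transcription factor of the integrated stress response, did not overlap between the groups, at 2.31 to 2.51 against 1.95 to 2.23 (-0.32 ± 0.07 SE, adjusted p = 0.163, limma). Trib3, a pseudokinase gene that ATF4 induces, differed by 0.75 in the other direction. In heme synthesis Alas1, the first enzyme, differed by -1.27 and Alad, the second, by 0.41, neither past the threshold. Hepatocyte markers, cholangiocyte markers and the respiratory chain had medians of 0.06, -0.01 and -0.05. Of the 12 measured hepatocyte markers, 4 were saturated on at least 1 array, where a difference can read too small. Sinusoidal endothelial markers were lower in 9 of 12 with a median of -0.13, which was 0.02 without high-dose mouse 2.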

How the data were processed

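Liver RNA of 18 mice was labelled with Cy3 and hybridised to 1-colour Agilent mouse arrays of 45018 spots. The deposited intensity of each spot is background-subtracted by Agilent Feature Extraction 9.5, per the submitters' processing notes and the file headers, and is not normalised between arrays. The deposited value table of the authors holds log2 values for 22514 probes and was used as an alternative; its steps are not given in the sources used here beyond the naming of limma.

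After taking log2, each array was scaled by subtracting its own 75th percentile. Outlier spots were dropped and spots of a probe averaged. Probes well above background on at least 6 of 18 arrays were kept (25427), and the brightest of them stood for each gene (17150 genes, of which 17148 could be tested and 471 lacked a value on some array). Names came from RefSeq (GRCm38.p6, names only): 23483 probes matched by accession, 6678 by symbol and 2887 by synonym, and 8126 kept the deposited name. Coordinates of probes are those of the files (mm8).

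The doses were compared with limma 3.58.1 in R 4.3.3 (lmFit and eBayes, group as the only term, all 18 arrays in 1 model, Benjamini-Hochberg, threshold 0.05, 2-sided). The procedure was also run on simulated data with the spread of each gene and known changes. Of the genes given a log2 change of 0.5, 1 or 2, 31.3%, 68.7% and 89.4% passed. The simulated noise was independent between arrays, so it lacked the shared deviation of arrays on 1 slide. Precision is limited by the number of arrays, with a median standard error of 0.165. The named genes are those past the threshold, the 12 higher and 12 lower with the smallest p among genes with a regular symbol (no clone, LOC, Gm, accession or transcript number), up to 4 members of each list with an unadjusted p under 0.05, and 25 genes named whatever their values. A few of these are not reported here. Members and lists were chosen with earlier results of these data known. Mouse numbers do not pair the mice: the deviations of low- and high-dose mice of the same number correlated from -0.31 to 0.25, and the labels state no shared litter or batch. The alternatives were other scalings, the normexp background with an offset of 50, other filters, probes averaged per gene or each tested alone, the 12 dosed arrays alone, trend and robust or weighted fits, slide, mouse number and brightness as terms, saturated genes left out, and each array left out in turn.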

Additional observations from a re-analysis of the deposited data

Results flagged for a closer look

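In each group of 6 dosed mice, a value was picked out when its gap to the nearest other mouse was large for the range of the group by Dixon's criterion. Of 300 groups tested, 14 were picked out, where chance picks about 1 in 20.

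High-dose mouse 2 gave 7 of them. S100a8 stood at 2.64 in it, against -4.79 to -2.46 in the other high-dose mice. The median of the neutrophil markers was 4.61, against -1.32 to 0.15, that of CAR and PXR targets -0.69, against -0.10 to 0.21, and that of heme and iron genes 0.22, against -0.10 to -0.01. Nr1i3, the gene of the drug receptor CAR, was lowest in this mouse at 1.02, against 2.30 to 2.95, and Ppox, a heme synthesis enzyme, at 0.25, against 1.05 to 1.24. Igfbp1 was highest in it at 5.74, against 4.18 to 4.47.

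Low-dose mouse 1 had the highest Chrna4, at 2.24, against 0.62 to 1.13, and the lowest levels of 2 enzymes of fatty acid breakdown, Amacr at 5.88, against 6.12 to 6.25, and Eci2 at 5.87, against 6.21 to 6.38. Mx2 was lowest in low-dose mouse 6, at -0.75, against -0.13 to 0.03. The cell cycle inhibitor Cdkn2c was highest in low-dose mouse 2, at 0.34, against -1.03 to -0.68. The quinone reductase Nqo1 was lowest in high-dose mouse 5, at -2.37, against -1.64 to -1.26, and Rrm2, of DNA precursor synthesis, was highest in high-dose mouse 4, at -2.15, against -3.07 to -2.76.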

How the results depend on the processing

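Over 34 other settings the count of 5 genes stayed within 1.5 times under quantile normalisation (5), the array median (4), the deposited value table (5), probes above background on all arrays (7), the mean of a gene's probes (6), slide as a random block (5), the brightness covariate (5) and without saturated genes (5). It was 1 with the normexp background, 2 with no filter, 8 with trend and robust, 14 with array weights, 11 probes of 8 genes with every probe alone, 0 with the 12 dosed arrays alone and 0 with slide as a block. The fit with the mouse number as a replicate block gave 0 (limma, 935 at an unadjusted p under 0.05); the numbers do not pair the mice. Leaving out 1 array at a time gave 1 to 10. Of 103 named genes, 96 kept the direction of the probe read for them in all the settings run, although the second probe of Per2 (0.23) and of Cd8b1 (0.076) had the other sign. Values moved by over 1.5 times in 42 of them with the normexp background, 17 in the deposited value table and 8 or fewer in each other setting that kept all 18 arrays. The other 7 turned: Rrm2 (0.12) and Krt19 (0.042) with the normexp background, Hyou1 (0.85) with the mean of probes, where only 2 low-dose values were present in the main reading, and Esr1 (-0.049) without high-dose mouse 2, which over the single arrays left out ran up to 0.35. S100a8 turned with the normexp background (0.49), the deposited table (0.20), slide as a block (0.13), and without low-dose mouse 1 or high-dose mouse 1 or 4, and over the single arrays left out ran from -1.17 to 0.31. S100a9 turned with the normexp background (-0.00106), array weights (-0.55), and without low-dose mouse 3 or 5 or high-dose mouse 2 or 6, with a range of -0.78 to 0.48. Cyp2b10 turned with quantile normalisation (-0.034), the array median (-0.012), array weights (-0.27), slide as a block (-0.31) and as a random block (-0.071), and without low-dose mouse 1, 3, 4 or 5 or high-dose mouse 3 or 6, with a range of -0.32 to 0.45. The causes were not tested. Of 17148 genes, 14189 were well above background on all arrays; the dimmest named genes, such as Mx1 and Cyp2b10, were not.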
